A study of Mus musculus with 13 samples.

Results

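The genes of antigen presentation by the major histocompatibility complex (MHC) were taken from the gene list of the deposited matrices by name: every symbol that starts with H2-, together with B2m, Tap1, Tap2, Tapbp, Cd74 and Ciita. This gave 40 of 32285 genes, and 37 of the 40 lie on chromosome 17 between 33915899 and 37483552 in GRCm38. B2m lies at chr2:122147686-122153083, Ciita at chr16:10480059-10528418 and Cd74 on chromosome 18. The rule used no measured value. By role, the list held 2 class Ia heavy chains, 22 class Ib heavy chains, the class I light chain, 3 peptide-loading genes, 4 class II chains, 6 class II chaperones and editors, the class II transactivator, and 1 gene, H2-Ke6, a hydroxysteroid dehydrogenase that carries the prefix only for its place in the locus.

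The 13 libraries of droplet-based single-cell RNA sequencing came from 10 colon tumors (COT) and 3 pieces of adjacent mucosa (Adj) of 3 C57BL/6J mice. All mice carried ApcMin/+; p16cis/cis, a mutant Apc allele combined with an engineered epimutation of p16, and ate a diet supplemented with choline, betaine, folic acid and vitamin B12. Animal AP1086 (20 weeks) gave COT replicates 1 to 4 and Adj replicate 1, AP1044 (24 weeks) gave COT replicates 5 to 8 and Adj replicate 2, and AP1067 (23 weeks) gave COT replicates 9 and 10 and Adj replicate 3. The comparison of COT with Adj asks how the tumor differs from the mucosa beside it in the same animal, and the mucosa, which carries the same alleles and diet, is not a healthy control. Mucosa was released with EDTA and TrypLE and tumors with an enzymatic tumor kit, so tissue and dissociation cannot be told apart.

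Class I molecules, a heavy chain paired with beta-2 microglobulin, sit on nearly all nucleated cells and show peptides from the cytosol, which Tap1 and Tap2 pump into the endoplasmic reticulum and tapasin (Tapbp) helps to load, to CD8 T cells. Class II molecules show peptides from endosomes to CD4 T cells; the invariant chain Cd74 escorts them, H2-DM exchanges their peptides, and Ciita switches their genes on. Class II is the mark of dendritic cells, macrophages and B cells, and intestinal epithelium also carries it, under the influence of interferon gamma.

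Stretches of 160 bases before the transcription start, from RefSeq (GRCm38.p6) and written 5′ to 3′ on the strand of the gene, are shown to let the 2 branches be read side by side, and 34 of the 40 genes had an entry. Cd74, Ciita, H2-Ab1, H2-Q1, H2-T24 and Tap2 had none, so their promoters were not read. The class II regulatory module has an X box followed by a Y box, which binds NF-Y. In the first set the letters GNAACT and, 15 to 30 bases on, GATTGG are in capitals; the genes shown are a class II alpha chain, a class II beta chain and a chain of H2-DM. They lie at chr17:34287824-34287983 on the minus strand (H2-Aa), chr17:34305707-34305866 on the plus strand (H2-Eb1) and chr17:34153031-34153190 on the plus strand (H2-DMb1).
H2-Aa: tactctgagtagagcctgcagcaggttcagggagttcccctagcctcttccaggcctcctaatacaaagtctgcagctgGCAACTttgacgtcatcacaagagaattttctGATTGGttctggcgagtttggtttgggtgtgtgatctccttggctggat
H2-Eb1: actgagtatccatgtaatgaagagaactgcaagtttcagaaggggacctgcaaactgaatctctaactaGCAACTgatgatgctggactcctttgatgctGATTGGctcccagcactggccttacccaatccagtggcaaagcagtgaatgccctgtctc
H2-DMb1: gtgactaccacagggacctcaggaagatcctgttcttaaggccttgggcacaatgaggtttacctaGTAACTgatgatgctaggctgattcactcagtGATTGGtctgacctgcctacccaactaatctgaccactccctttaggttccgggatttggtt

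Class I promoters are known for an interferon response element, and in the second set the letters GTTTCACTT are in capitals. The genes shown are both class Ia chains and 3 class Ib chains that differed in how their RNA compared between tumor and mucosa: H2-K1 at chr17:34000348-34000507 on the minus strand, H2-D1 at chr17:35262934-35263093 on the plus strand, H2-Q7 at chr17:35438995-35439154 on the plus strand, H2-M3 at chr17:37270074-37270233 on the plus strand and H2-T3 at chr17:36190152-36190311 on the minus strand.
H2-K1: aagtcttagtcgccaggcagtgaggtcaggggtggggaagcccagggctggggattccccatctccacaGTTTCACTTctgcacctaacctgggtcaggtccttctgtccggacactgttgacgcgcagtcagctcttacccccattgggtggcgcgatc
H2-D1: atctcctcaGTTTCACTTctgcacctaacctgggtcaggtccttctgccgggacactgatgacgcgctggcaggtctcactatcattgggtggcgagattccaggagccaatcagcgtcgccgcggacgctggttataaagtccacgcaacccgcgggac
H2-Q7: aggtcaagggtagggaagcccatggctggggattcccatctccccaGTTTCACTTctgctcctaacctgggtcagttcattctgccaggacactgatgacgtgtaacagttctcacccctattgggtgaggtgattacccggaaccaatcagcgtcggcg
H2-M3: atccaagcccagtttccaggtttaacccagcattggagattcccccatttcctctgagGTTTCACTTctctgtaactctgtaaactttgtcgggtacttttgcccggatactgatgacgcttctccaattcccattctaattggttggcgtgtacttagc
H2-T3: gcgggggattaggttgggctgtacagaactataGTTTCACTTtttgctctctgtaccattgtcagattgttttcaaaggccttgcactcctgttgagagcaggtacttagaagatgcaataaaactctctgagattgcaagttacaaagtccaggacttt
On either strand, the paired letters occurred in 59 of 32851 promoter entries (0.18%) and in 4 of the 34 listed genes (H2-Aa, H2-Eb1, H2-Eb2 and H2-DMb1). GTTTCACTT occurred in 60 entries (0.183%) and in 8 of the 34 (H2-D1, H2-K1, H2-M3, H2-Q10, H2-Q4, H2-Q6, H2-Q7 and H2-T3). Both strings were chosen after these promoters were read, and a match is a description of letters, not of binding.

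The libraries held 57221300 to 116133079 unique molecular identifiers (UMIs, counted cDNA molecules), and 108495 cells were kept, 85953 from tumors and 22542 from mucosa. Cells were clustered with the 40 genes held out and named from marker genes. The epithelium comprised 17093 tumor and 15131 mucosa cells, and its UMI sums were 22107890 to 39136859 in COT and 61585800 to 82884405 in Adj. Levels are given as CPM, the UMIs of a gene scaled by all UMIs of the same cells in the same library to a common total. All 13 libraries had Ddx3y RNA, a Y-linked transcript, at 29.7 to 50.1 CPM and Xist at 0.01 to 0.13 CPM, including those labelled female, and libraries of 1 animal carried both labels, so the sex labels were not used. Any pair of libraries shared at most 0.561% of the barcodes of the smaller. COT replicate 3 had the lowest epithelial level of all tumors in most of the genes given by library below. An outlier criterion marked it only in its share of epithelial cells with a B2m UMI. Where a call changed without this tumor, the value without it is given.

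Of the 40 genes, 6 had no UMI in any retained cell (H2-M1, H2-M10.2, H2-M10.3, H2-M10.4, H2-M10.5 and H2-M11), all of them class Ib genes. H2-M10.1, H2-M10.6, H2-M5 and H2-M9 had 27, 7, 14 and 10 UMIs over all cells. The other genes ranged from 1512 UMIs (H2-Q1) to 2909692 UMIs (Cd74). Similar gene copies, such as H2-K1 with H2-D1, H2-Q6 with H2-Q7 and H2-T22 with H2-T24, can exchange reads, so their single values are uncertain.

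Across cell classes of the tumors, class II RNA was highest in dendritic, macrophage and B cell-like cells and reached into the epithelium, while class I RNA was found in all classes. Cd74 was highest in type 1 dendritic cell-like cells, at 18646.5 ± 441.5 CPM (mean ± SD over 3 animals, as for all levels of a class or cluster unless libraries are named), followed by C1q+ macrophage-like cells at 13395.8 ± 1170.1 and B cell-like cells at 12121.7 ± 1043.0. The last 2 overlapped within their SDs. Mature dendritic cell-like cells were at 8370.6 ± 1421.0 CPM, Spp1+ macrophage-like cells at 5541.1 ± 1509.6 and plasmacytoid dendritic cell-like cells at 4436.1 ± 466.2. The dendritic cluster called type 1-like also carried Clec10a, a marker of type 2 cells. These levels are a description with no test, and they rest on clusters named here, not by the study.

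Among tumor epithelial classes, the absorptive epithelial-like cells, which resemble mature colonocytes, carried the most Cd74 RNA at 3427.9 ± 669.9 CPM. They overlapped within the SDs with Spp1+ macrophage-like and plasmacytoid dendritic cell-like cells above them in the order, and with Ly6c+ monocyte-like cells (2242.7 ± 559.9 CPM), the next below. Tumor epithelial-like cells, whose leading genes included the Wnt targets Axin2, Nkd1 and Wif1, had 1072.9 ± 218.5 CPM, with single tumors from 105.2 to 1924.2, and were close to Paneth-like cells (1194.6 ± 269.2). Goblet-like cells had 566.5 ± 182.1 CPM. At the low end, T cell-like cells were at 157 CPM and neutrophil-like cells, the most numerous class with 26736 tumor cells, at 90.6 CPM. In mucosa the absorptive epithelial-like cells stood at 6396.0 ± 1250.8 CPM of Cd74, below B cell-like cells (10666.6 ± 1637.7 CPM) and above cycling epithelial-like (2605.1 ± 123.1 CPM) and goblet-like cells (1712.6 ± 531.1 CPM), each beyond the SDs.

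The alpha chain H2-Aa gave a similar order, from 6833.2 ± 417.6 CPM in type 1 dendritic cell-like cells through 4212.6 ± 294.5 in C1q+ macrophage-like and 3682.0 ± 120.1 in B cell-like cells to 21.4 ± 7.32 in neutrophil-like cells. Ciita RNA was highest in type 1 dendritic cell-like (113.6 ± 17.2 CPM) and B cell-like cells (97.6 ± 35.5 CPM), which overlapped. Ciita stood at 0.342 ± 0.358 CPM in plasma cell-like cells, although these kept Cd74 at 1519.4 ± 186.7 CPM. H2-Oa and H2-Ob, the subunits of the H2-O modulator of H2-DM, were highest in B cell-like cells, followed by type 1 dendritic cell-like cells. H2-Ob was at 335.9 ± 27.4 CPM in the first and at 52.0 ± 2.98 in the second, and H2-Oa at 237.4 ± 39.9 and 136.5 ± 14.9 CPM. The B cell-like cells held 3470 of the 5329 H2-Ob UMIs of the tumors but 2543 of the 6543 H2-Oa UMIs, of which type 1 dendritic cell-like cells held 2673. H2-Eb2 was likewise led by B cell-like cells (95.9 ± 9.72 CPM in COT, 128.7 ± 10.6 in Adj).

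**Figure D1:**
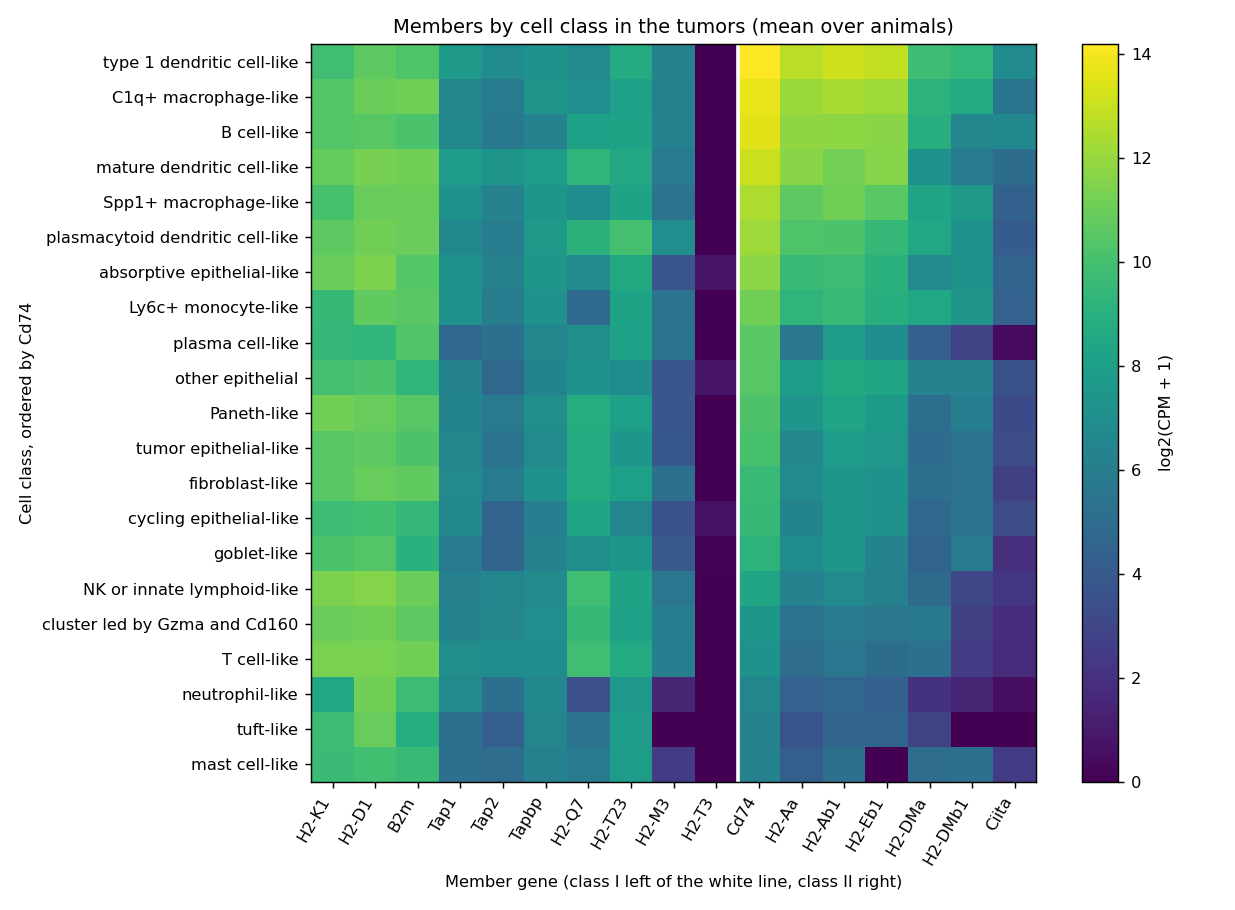
Heat map of 17 genes of antigen presentation (columns, class I left and class II right of the white line) in 21 cell classes of the tumors (rows, ordered by Cd74), as log2 of the mean CPM over animals plus 1. The class II columns run from bright in dendritic, macrophage and B cell-like rows to dark in neutrophil and mast cell-like rows, while the H2-K1, H2-D1 and B2m columns are bright throughout, apart from H2-K1 in neutrophil-like cells, and H2-T3 is dark in all rows.

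The light chain B2m varied less between classes than Cd74, while single heavy chains varied widely. B2m ranged from 2319.2 ± 205.0 CPM in mature dendritic cell-like cells to 532.1 ± 109.1 in goblet-like cells among classes found in all 3 animals. H2-K1 was highest in NK or innate lymphoid-like (2712.5 ± 35.5 CPM) and T cell-like cells (2567.9 ± 30.3 CPM) and lowest in neutrophil-like cells at 346.9 ± 15.3 CPM. In the same neutrophil-like cells H2-D1 was at 2304.4 ± 190.8 CPM, among the higher of its levels, so H2-K1 and H2-D1 had different orders over the classes. H2-Q7, the heavy chain of the Qa-2 antigen, was high in NK or innate lymphoid-like (927.1 ± 149.1 CPM) and T cell-like cells (917.4 ± 108.0 CPM) and low in neutrophil-like cells (10.0 ± 1.99 CPM).

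The class Ib genes had other leading classes. H2-T23, which encodes Qa-1 and presents leader peptides to NKG2 receptors, was highest in plasmacytoid dendritic cell-like cells (1025.7 ± 272.3 CPM, against 416.3 ± 109.5 in type 1 dendritic cell-like cells), and was found in every class, down to 90.4 ± 12.0 CPM in cycling epithelial-like cells. H2-M3, which presents N-formylated peptides, was also led by plasmacytoid dendritic cell-like cells, at 123.0 ± 10.7 CPM. H2-M2 was nearly confined to C1q+ macrophage-like cells, which held 3910 of the 4118 H2-M2 UMIs of the tumors. H2-Q10, known as a secreted class Ib molecule of the liver, was highest in neutrophil-like cells of the tumors at 221.7 ± 9.82 CPM.

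In the epithelium, the class II branch was lower in tumors than in mucosa, the classical class I branch did not pass the test, and single class Ib genes were far lower. By edgeR's quasi-likelihood test on UMI sums per library with Benjamini-Hochberg (BH) adjustment, 14 of the 27 genes that passed the filter on low counts were lower in COT and 0 were higher. These 14 are 51.9% of those tested, against 63.7% of all 15439 genes tested, which were called in either direction. For the lower direction alone the background was 30.1%, and for the higher direction it was 33.6%. The median log2 fold change of the 27 genes was -0.87, against 0.04 for all genes. For 11 genes every COT library lay below every Adj library, which held for 13% of all genes. The 13 genes that were not tested were the 10 class Ib genes of the H2-M cluster with few or no UMIs, and H2-Eb2, H2-Oa and H2-Ob, with 72, 49 and 58 epithelial UMIs.

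Cd74, the invariant chain, was at 2089.5, 3360.7 and 3167.1 CPM in Adj replicates 1, 2 and 3, and at 311.5 (lowest), 1250.6 (median) and 2003.5 CPM (highest) in COT. All 10 tumors were below all 3 mucosae, the lowest tumor being COT replicate 3. The fitted log2 fold change was -1.51 ± 0.40 (SE; edgeR, BH-adjusted p = 0.00484), and it was -1.39 (adjusted p = 0.00216) without COT replicate 3. Within animals, the mean of the tumors was 0.288 of the mucosa level in AP1044, 0.413 in AP1067 and 0.661 in AP1086. The mucosae differed in cell make-up. Absorptive epithelial-like cells were 141 of 2527 epithelial cells in Adj replicate 1, 1705 of 7255 in Adj replicate 2 and 1146 of 5349 in Adj replicate 3. The part of this make-up in the ratios and in the mucosa levels was not tested.

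The class II chains followed Cd74. H2-Aa, the alpha chain of I-A, was at 404.3, 892.5 and 667.8 CPM in the 3 mucosae, and between 48.7 and 241.6 CPM (median 160.8) in the tumors. The groups did not overlap, and the log2 fold change was -2.36 ± 0.37 (edgeR, BH-adjusted p = 9.43e-05). H2-Ab1, its beta chain, had 551.5, 794.0 and 803.5 CPM in Adj against 67.6 to 499.96 CPM (median 278.1) in COT, again with no overlap and a log2 fold change of -1.63 ± 0.42 (edgeR, BH-adjusted p = 0.00389).
H2-Eb1, the beta chain of I-E, was at 452.6, 467.8 and 579.4 CPM in Adj and at 45.2 to 400.9 CPM (median 221.6) in COT, with no overlap. Its log2 fold change was -1.47 ± 0.44 (edgeR, BH-adjusted p = 0.0100). C57BL/6 mice lack a working gene for the I-E alpha chain, so this RNA does not report surface I-E. In all 3 chains the lowest tumor was COT replicate 3, and 0 of 10 tumors was above its own mucosa.

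The subunits of H2-DM, the peptide editor of class II, were also lower. H2-DMa was at 96.6, 130.1 and 143.3 CPM in Adj and at 14.0 to 64.5 CPM (median 34.9) in COT, and the log2 fold change was -1.91 ± 0.35 (edgeR, BH-adjusted p = 0.000359). H2-DMb1 was at 152.6, 201.0 and 159.7 CPM in Adj and at 15.4 to 78.3 CPM (median 53.0) in COT, a log2 fold change of -2.02 ± 0.37 (edgeR, BH-adjusted p = 0.000328). Neither overlapped. H2-DMb2, the second beta chain gene, was scarce in epithelium and did not pass the test (log2 fold change -0.47 ± 0.62).

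Ciita, the transactivator, fell as well, from 12.4, 21.7 and 29.5 CPM in Adj to between 2.238 and 14.996 CPM (median 9.782) in COT. The highest tumor, COT replicate 9, was above Adj replicate 1 but not above its own mucosa, so the groups overlapped although all 10 tumors were below the mucosa of their animal. The log2 fold change was -1.45 ± 0.37 (edgeR, BH-adjusted p = 0.00394). Thus 3 of 3 tested class II chains, 3 of 4 tested chaperones and editors, and Ciita were lower.

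**Figure D2:**
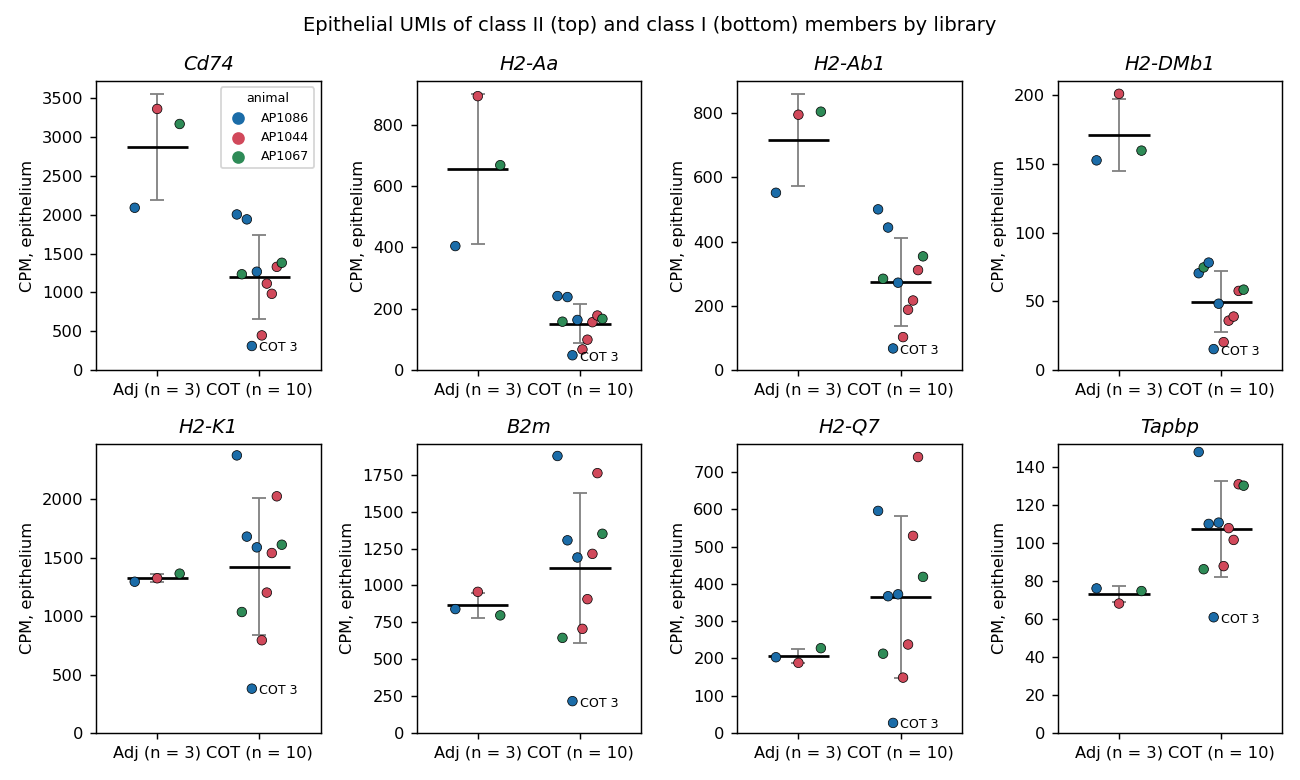
CPM in the epithelium of each library (points, colored by animal) for 4 class II genes (top) and 4 class I genes (bottom), with the group mean (black line) and SD (grey bars). For Cd74, H2-Aa, H2-Ab1 and H2-DMb1 all 10 COT points lie below the 3 Adj points, while for H2-K1, B2m and H2-Q7 the tumors spread on both sides of the mucosa. For Tapbp all tumors except COT replicate 3 lie above the 3 Adj points. COT replicate 3 is at the bottom of each panel.

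The class Ia chains and their light chain scattered widely between tumors around a narrow mucosa level. H2-K1 was at 1295.3, 1324.9 and 1364.5 CPM in Adj and at 379.1 to 2377.6 CPM (median 1565.4) in COT. H2-D1 was at 1418.7, 1496.2 and 1565.3 CPM in Adj and at 495.8 to 2378.5 CPM (median 1647.3) in COT. Each was above its own mucosa in 6 of 10 tumors. The log2 fold changes were -0.16 ± 0.37 for H2-K1 and -0.18 ± 0.33 for H2-D1 (edgeR, BH-adjusted p = 0.724 and 0.649), and with library totals in place of edgeR's scaling factors they were 0.10 and 0.08.
B2m was at 840.1, 956.9 and 797.4 CPM in Adj and at 215.6 to 1878.5 CPM (median 1202.2) in COT, and 6 of 10 tumors were above their mucosa. Its log2 fold change was 0.11 ± 0.43 (edgeR, BH-adjusted p = 0.836). In these 3 genes the difference between the tissues did not exceed the spread between tumors.

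Of the peptide-loading genes, Tap1 and Tap2 did not pass the test, and Tapbp passed in some alternatives. Tap1 was at 63.6, 85.3 and 96.6 CPM in Adj and 19.4 to 130.8 CPM (median 87.1) in COT, and Tap2 at 25.01, 28.08 and 31.15 CPM in Adj and 9.20 to 61.2 CPM (median 34.1) in COT. Their log2 fold changes were -0.16 ± 0.38 and 0.20 ± 0.40 (edgeR, BH-adjusted p = 0.725 and 0.678), and that of Tap1 was 0.10 with library totals alone. Tap1 was above its own mucosa in 6 of 10 tumors and Tap2 in 8. Tapbp was at 76.2, 68.2 and 74.8 CPM in Adj and 61.0 to 148.1 CPM (median 109.1) in COT, above its own mucosa in 9 of 10 tumors, the exception being COT replicate 3. The log2 fold change of Tapbp was 0.30 ± 0.19 (edgeR, BH-adjusted p = 0.186). Without COT replicate 3 it was 0.37 (adjusted p = 0.0404), with the tumors of each mouse summed it was also called higher, and with library totals alone 0.56 (adjusted p = 0.0277).

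The largest difference of the 27 genes was in H2-T3, the thymus leukemia antigen, a class Ib molecule of intestinal epithelium that binds CD8 alpha homodimers. H2-T3 was at 9.65, 38.7 and 36.3 CPM in Adj (6701 UMIs in all) and at 0 to 2.21 CPM (median 0.0581) in COT (69 UMIs in all). The groups were far apart, and 50 of the 69 tumor UMIs came from COT replicate 6. The fitted log2 fold change was -7.03 ± 0.87 (edgeR, BH-adjusted p = 1.43e-05), and -8.80 (adjusted p = 1.4e-07) without that tumor. In mucosa the highest H2-T3 level was in absorptive epithelial-like cells (63.8 ± 30.7 CPM), followed by cycling (27.2 ± 7.13) and other epithelial cells (23.87 ± 13.03), and the plasma cell-like, monocyte-like and neutrophil-like cells had 0 UMIs. Tumor epithelial-like cells had 0 H2-T3 UMIs in all 10 tumors, over 11878 cells and 186276966 UMIs, which allows a level of up to 0.0161 CPM (3 counts over the group, counting error only).

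H2-Q1 and H2-Q2, class Ib genes of the Q region with little known function, were lower too. H2-Q1 was at 1.12, 7.25 and 8.52 CPM in Adj and 0.161 to 0.935 CPM in COT (log2 fold change -3.74 ± 0.42; edgeR, BH-adjusted p = 7.47e-06). H2-Q2 was at 41.7, 79.5 and 87.3 CPM in Adj and 7.33 to 16.4 CPM in COT (-2.70 ± 0.22; edgeR, BH-adjusted p = 5.64e-07). Like H2-T3, both had their highest mucosa level in absorptive epithelial-like cells, at 35.8 ± 7.78 CPM for H2-Q1 and 233.8 ± 44.9 CPM for H2-Q2. H2-Q10 was lower by a log2 fold change of -1.27 ± 0.26 (edgeR, BH-adjusted p = 0.000891), and H2-Ke6, the dehydrogenase, by -0.90 ± 0.09 (edgeR, BH-adjusted p = 1.83e-06).

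H2-T23 and H2-M3 were lower near the threshold. H2-T23 was at 252.3, 237.8 and 248.2 CPM in Adj and 77.2 to 284.2 CPM (median 156.8) in COT, with 2 tumors above their mucosa, and its log2 fold change was -0.76 ± 0.30 (edgeR, BH-adjusted p = 0.0389). With the animal as a block it was -0.75 (adjusted p = 0.0597), with library totals alone -0.50 (adjusted p = 0.172), with doublets kept -0.69 (adjusted p = 0.0558) and without goblet-like cells -0.70 (adjusted p = 0.0613), and the call was lost on leaving out any of 8 of the 13 libraries (Adj replicates 1, 2 and 3 and COT replicates 4, 5, 6, 7 and 10; adjusted p 0.0529 to 0.0938). H2-M3 was at 26.1, 17.2 and 20.1 CPM in Adj and 5.79 to 22.8 CPM (median 13.7) in COT, a log2 fold change of -0.87 ± 0.31 (edgeR, BH-adjusted p = 0.0246). The call was lost without Adj replicate 1 (adjusted p = 0.123), without Adj replicate 3 (adjusted p = 0.0545) and with library totals alone (-0.62; adjusted p = 0.0952). With the tumors of each mouse summed both genes kept their calls, H2-T23 at -0.78 and H2-M3 at -0.895 (edgeR, BH-adjusted p = 0.00159 and 0.00556).

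H2-Q7, the Q-region gene with most epithelial UMIs, was at 203.2, 188.2 and 227.5 CPM in Adj and 26.8 to 740.8 CPM (median 369.6) in COT. It was above its own mucosa in 7 of 10 tumors, with a log2 fold change of 0.56 ± 0.61 (edgeR, BH-adjusted p = 0.438). Its neighbors H2-Q4 and H2-Q6 had log2 fold changes of 0.59 ± 0.40 and 0.68 ± 0.60 that did not pass. H2-Q4 passed, at 0.71 (edgeR, BH-adjusted p = 0.0219), without COT replicate 3. With the tumors of each mouse summed, H2-Q4, H2-Q6, H2-Q7 and Tapbp were all called higher, and 19 of 28 tested genes were called in all (15 of them lower), against 55.8% of all genes in that fit, 25.7% lower and 30.1% higher. H2-M2 (-1.65 ± 0.86) was called in the whole epithelium only with the animal as a block (-1.90; edgeR, BH-adjusted p = 0.0490), and H2-T24 (0.36 ± 0.44) did not pass. H2-T22 (-0.32 ± 0.36) did not pass either, but was called lower with the tumors of each mouse summed (-0.35; edgeR, BH-adjusted p = 0.0154).

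**Figure D3:**
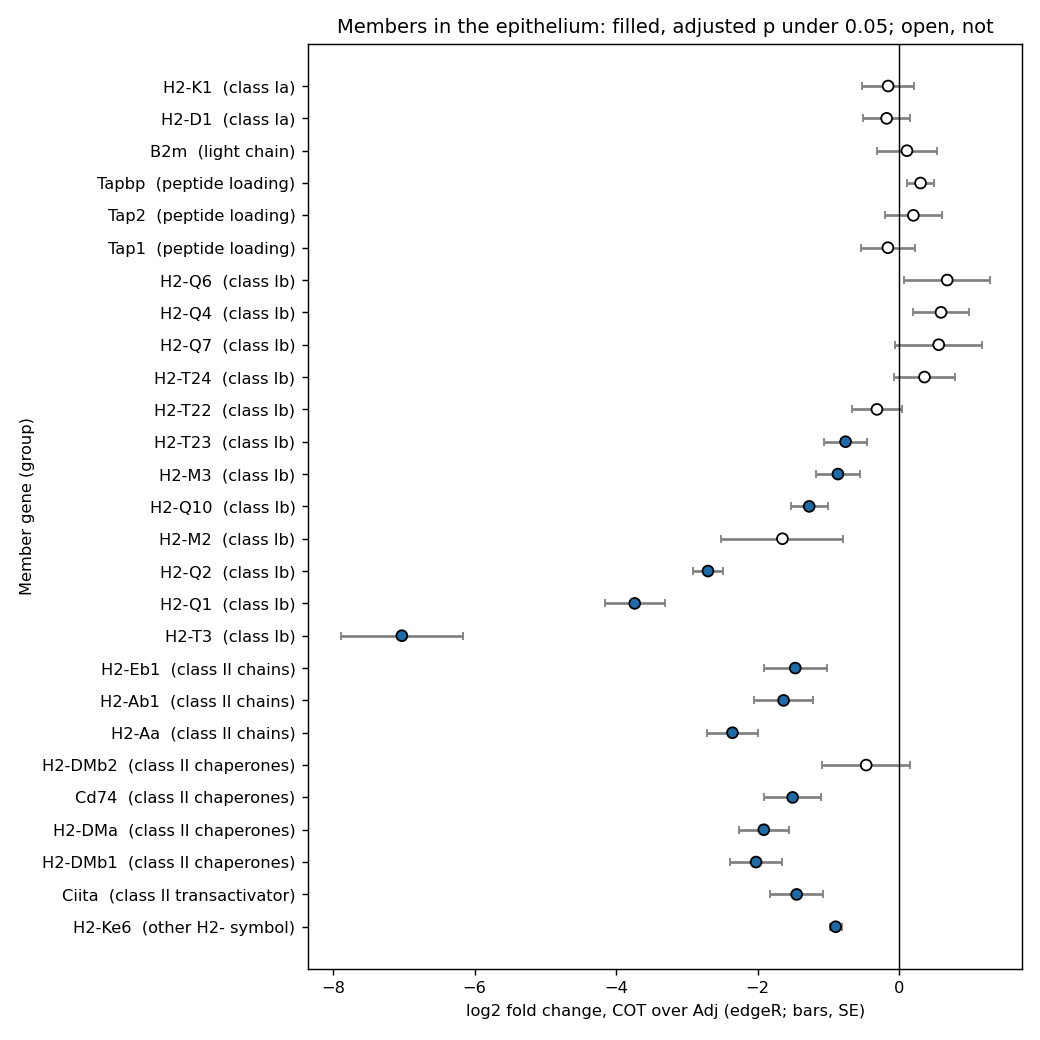
Log2 fold change of COT over Adj in the epithelium (x axis, edgeR) with its SE (bars) for the 27 tested genes, grouped by role; filled points had an adjusted p under 0.05. The 14 filled points all lie left of 0, from -7.03 (H2-T3) to -0.76 (H2-T23), and the class Ia, light chain and loading genes are open points near 0.

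Other cells moved with the tissue in these epithelial sums. A list of 7 leukocyte genes summed to 27.3 to 89.7 CPM in COT and 12.0 to 16.4 CPM in Adj, with 5 of 7 higher, and 6 macrophage genes to 8.76 to 31.7 CPM against 1.92 to 4.08 CPM, with 5 of 6 higher. The 3 B cell genes summed to 1.18 to 6.74 CPM in COT and 1.16 to 1.32 in Adj (1 of the 2 tested higher), the 3 dendritic cell genes were at most 0.256 and 0.0325 CPM, with 1 of them at 0 UMIs in all Adj libraries, and the 3 neutrophil genes reached 125 to 587 CPM against 6.41 to 18.6 (3 of 3 higher). In epithelial cells without any UMI of the 7 leukocyte genes, Cd74 and H2-Aa had log2 fold changes of -1.53 and -2.43 (edgeR, BH-adjusted p = 0.00442 and 9.16e-05). All 8 genes of a dissociation stress list were higher in COT, with sums of 1377 to 3689 CPM against 561 to 700 CPM, and the part of dissociation in the class II result was not tested.

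The share of epithelial cells with a Cd74 UMI showed the same direction cell by cell. After each cell was thinned to 2000 UMIs, 83.1, 95.7 and 95.5% of epithelial cells had one in Adj replicates 1, 2 and 3, against 24.0 to 77.7% (median 67.3%) in the tumors. No tumor reached its own mucosa. Over animals the shares were 62.2 ± 7.06% in COT and 91.4 ± 7.20% in Adj, a difference of -29.3 percentage points (two-sided exact permutation test within animals, p = 0.04, the smallest possible being 0.0133). The p was 0.05 to 0.2 without any 1 of 10 of the 13 libraries (Adj replicates 1, 2 and 3 and COT replicates 1, 2, 4, 5, 6, 7 and 8), with differences of -32.6 to -24.1 points. Leaving out an Adj replicate removed its whole animal from this test, and both ends of that range come from such removals. Unthinned, the shares ran from 40.5 to 88.6% in COT and from 94.3 to 98.5% in Adj, at median depths of 11750 and 12451 UMIs per cell. A Cd74 UMI was also found in 15.4% of thinned neutrophil-like cells of the tumors, a class not known for class II, which had a median of 2600 UMIs and serves here as the background. In mucosa the T cell-like cells and the cluster led by Gzma and Cd160, classes not known for class II either, gave shares of 10.1% and 16.3%, at median depths of 2310.5 and 1772.0 UMIs. The source of these UMIs was not tested. At a minimum of 3 Cd74 UMIs the 3 shares were 0.452, 1.26 and 2.16%, and the epithelial shares were 34.8 ± 6.14% in COT and 74.0 ± 14.5% in Adj (exact permutation p = 0.0133).

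For H2-Aa the thinned shares were 19.7 ± 3.85% in COT and 60.8 ± 13.2% in Adj, and for H2-Ab1 32.0 ± 6.99% and 67.6 ± 9.77% (exact permutation p = 0.0133 for each). The H2-K1 share was 81.0 ± 1.70% in COT and 88.5 ± 0.447% in Adj, and the B2m share 70.4 ± 1.81% and 77.7 ± 3.23%, neither of which passed (exact permutation p = 0.387 and 0.52). These 5 shares were compared one by one with no adjustment. Within the tumors, 2 tumor epithelial-like clusters are set side by side. Cd74 RNA stood at 1249.9 ± 253.8 CPM in the cluster led by Gm26917, Cldn4 and Onecut2 and at 913.4 ± 140.3 CPM in the cluster led by Mt4, Mt3 and Ptn, which overlapped within the SDs, whereas H2-K1 (1168.1 ± 39.1 against 1704.2 ± 63.5 CPM) and B2m (901.7 ± 53.5 against 1450.5 ± 42.5 CPM) had the opposite order. The 40 genes took no part in drawing the clusters, and no test was made between them. Their median depths were 7647.0 and 16605.5 UMIs per cell, and Gm26917 also led an unnamed cluster with a median of 906.5 UMIs.

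**Figure D4:**
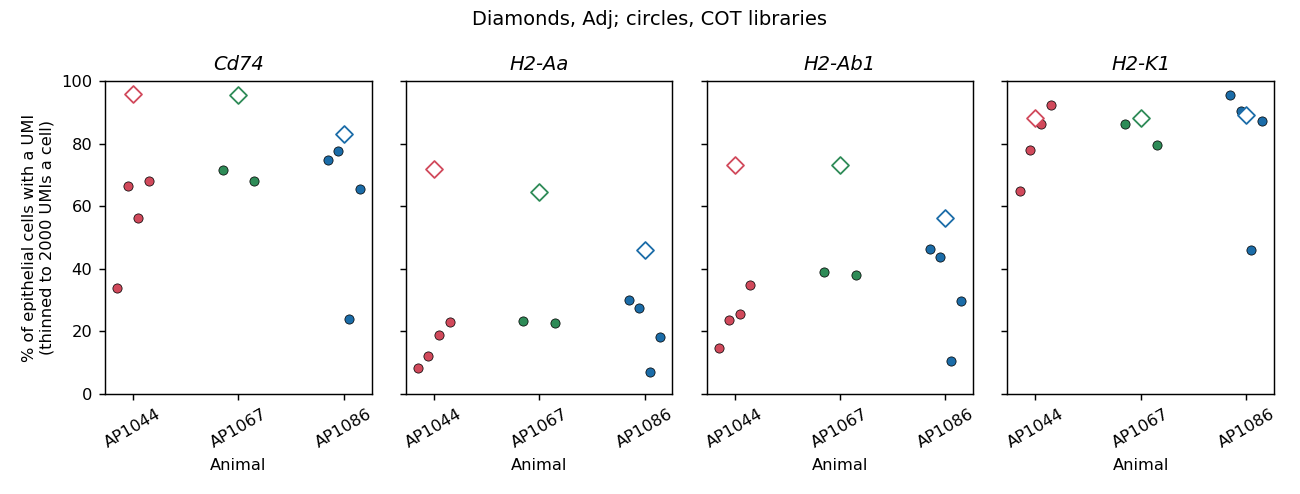
Percentage of epithelial cells with at least 1 UMI of Cd74, H2-Aa, H2-Ab1 or H2-K1 after thinning to 2000 UMIs per cell (y axis), by animal (x axis), for Adj (open diamonds) and each COT library (circles). In the Cd74, H2-Aa and H2-Ab1 panels every circle is below the diamond of its animal, and in the H2-K1 panel 3 of 10 circles are above it.

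Mucosa and tumor epithelium are made of different cells, so absorptive and goblet-like cells, found in both, were compared on their own. Cycling and other epithelial cells were also found in both and were not tested apart. In absorptive epithelial-like cells (2992 in Adj and 1131 in COT), 24 genes were tested and 10 were lower, 41.7%, against a background of 16.4% lower, 14.6% higher and 31% in either direction, and 7 had no overlap between groups, against 6.85% of all genes. They were the 3 class II chains, Cd74, H2-DMa, H2-DMb1, Ciita, H2-Q1, H2-Q2 and H2-T3. H2-M2 did not pass edgeR's filter there and was called lower with DESeq2 (-4.22, adjusted p = 0.00242), on 98 UMIs in Adj and 36 in COT. The UMI sums of this class were 1997144 to 15964673 per library in Adj and 478788 to 3554521 in COT. Against these sums the pooled H2-M2 counts did not show a drop as large as the DESeq2 value, so its size is uncertain. In the whole epithelium H2-M2 was at 0.02555 to 1.569 CPM in COT and 0.2598 to 1.2 CPM in Adj, and the groups overlapped. Cd74 fell from 6396.0 ± 1250.9 CPM (n = 3 libraries) to 3487.0 ± 1039.2 CPM (n = 10 libraries), a log2 fold change of -1.06 ± 0.25 (edgeR, BH-adjusted p = 0.00441), and H2-Aa from 1958.8 ± 433.7 to 821.0 ± 265.1 CPM over the same libraries, a log2 fold change of -1.44 ± 0.27 (edgeR, BH-adjusted p = 0.000825). H2-T3 went from 63.8 ± 30.7 to 0.822 ± 1.24 CPM over libraries, a log2 fold change of -6.48 ± 0.52 (-7.24 without COT replicate 7; edgeR, BH-adjusted p = 5.12e-07 and 5.95e-07). H2-K1, H2-D1 and B2m did not pass, at -0.43 ± 0.29, -0.29 ± 0.24 and -0.71 ± 0.35. H2-Ab1 and H2-Eb1 lost their calls without Adj replicate 1 (edgeR, BH-adjusted p = 0.117 and 0.182). Most Adj cells of this class came from a cluster led by Cyp2c55 and Car1 (2488 cells) and most COT cells from one led by Clca4b, Saa1 and Ly6m (1099 cells). Within the second cluster, which also held 504 Adj cells, Cd74 was at 7649.4 ± 380.1 CPM in Adj and 3417.8 ± 681.3 CPM in COT, and H2-Aa at 2705.2 ± 557.2 and 785.2 ± 172.1 CPM, with no overlap between libraries and no test made. H2-T3 differed between the clusters already in mucosa, at 73.3 ± 37.7 CPM in the first and 4.95 ± 2.49 in the second, where the COT level was 0.185 ± 0.160 CPM.

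When the tumor epithelial-like cells alone were set against all mucosa epithelium, Cd74 had a log2 fold change of -1.78 and H2-Aa of -3.22 (edgeR, BH-adjusted p = 0.00778 and 0.000244), and H2-K1 and B2m of -0.18 and 0.17 did not pass. In goblet-like cells (8 COT and 3 Adj libraries), 7 of 21 tested genes were lower, 33.3%, against a background of 1.81% lower, 3.74% higher and 5.54% in all, and 8 had no overlap, against 4.35% of all genes. They were H2-Aa (-1.68 ± 0.41), H2-Ab1 (-1.30 ± 0.30), H2-DMb1 (-1.61 ± 0.27), Tap2, H2-Q2, H2-T22 and H2-T23, while Cd74 at -1.40 ± 0.41 did not pass (edgeR, BH-adjusted p = 0.0578). This count was 2 without Adj replicate 2 and 1 without Adj replicate 3, with H2-DMb1 the gene that kept its call without any library. The 8 genes with no overlap in goblet-like cells were B2m, 2 of the 3 peptide-loading genes, 4 class Ib genes and 1 class II chaperone or editor. B2m (-0.79) and the class Ia chains (-0.57 and -0.53) did not pass there. The class Ia chains were lower by more than in the whole epithelium, where B2m was not lower (0.11).

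Of the lymphocytes, T cell-like and B cell-like sums were tested. NK or innate lymphoid-like cells and an unnamed cluster led by Gzma and Cd160 (440 COT and 3834 Adj cells), whose leading genes included Cd8a and Tcrg-C2, were not. In T cell-like cells 4 of 23 tested genes were called, 17.4%, against a background of 16.1% in either direction, 6.8% lower and 9.35% higher. H2-Q6 rose (0.67 ± 0.16), and H2-DMa (-0.88 ± 0.22), H2-Ke6 (-1.03 ± 0.23) and H2-Q2 (-3.47 ± 0.56) fell, from 10.1 ± 4.37 to 0.633 ± 0.349 CPM over libraries in the case of H2-Q2 (edgeR, BH-adjusted p = 0.000251). This H2-Q2 level in Adj rests on 14 UMIs. Of all 16257 H2-Q2 UMIs of the mucosa 16163 were in epithelial cells, whose level moved in the same direction, and the part of epithelial RNA in the T cell-like value was not tested. Without Adj replicate 1 the calls of H2-DMa and H2-Ke6 were lost (edgeR, BH-adjusted p = 0.138 and 0.156). Other listed genes were then called lower. In that fit 5 of 24 tested genes were called (1 higher, 4 lower), against 898 of all 10341 genes. Without COT replicate 10, 5 of 22 were called (2 higher, 3 lower), against 1610 of all 9498 genes. With DESeq2 B2m was also called higher (0.44, adjusted p = 0.0123). In B cell-like cells 2 of 24 were called, 8.33%, well below the background of 41.1% (21% lower and 20.1% higher): H2-Ab1 was higher (0.41 ± 0.16; edgeR, BH-adjusted p = 0.0434) and H2-T22 lower (-0.62 ± 0.18; edgeR, BH-adjusted p = 0.00912). The H2-Ab1 call was lost on leaving out any of 11 of the 13 libraries (adjusted p 0.0516 to 0.236). With the animal as a block H2-Ob was also called, as higher (0.44; edgeR, BH-adjusted p = 0.0235), and with DESeq2 H2-DMa, as lower (-0.36; adjusted p = 0.00374). Cd74 in B cell-like cells was at 10666.6 ± 1637.7 CPM in Adj and 12154.9 ± 1712.9 CPM in COT over libraries and did not pass. The difference between classes in these folds was not tested. Macrophage-like and dendritic cell-like cells could not be compared, since only 1 mucosa library held at least 20 of either, and there Cd74 was at 30904.7 CPM in C1q+ macrophage-like and 23322.9 CPM in type 1 dendritic cell-like cells.

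COT replicate 3 had the lowest class I and class II levels of all tumors in its epithelium, while in its T and B cell-like cells the class I genes lay within the range of the other tumors, apart from Tapbp in B cell-like cells, the highest of the 10 at 113.5 CPM. Of 9 class I genes followed by class (H2-K1, H2-D1, B2m, Tap1, Tap2, Tapbp, H2-T23, H2-M3 and H2-Q7), 9 were below all other tumors in tumor epithelial-like cells, 8 in cycling and 6 in absorptive epithelial-like cells. The number was 9 in Spp1+ macrophage-like, 6 in C1q+ macrophage-like, 4 in Ly6c+ monocyte-like, 3 in type 1 dendritic cell-like and 3 in neutrophil-like cells, and 0 in T and B cell-like cells. Of 7 class II genes (Cd74, H2-Aa, H2-Ab1, H2-Eb1, H2-DMa, H2-DMb1 and Ciita), 7 were below all other tumors in tumor epithelial-like and in cycling epithelial-like cells, 4 in type 1 dendritic cell-like, 3 in neutrophil-like and 1 in absorptive epithelial-like cells. In C1q+ and Spp1+ macrophage-like cells 1 of the 7 was, and in monocyte, T and B cell-like cells 0. How many of all genes were lowest in COT replicate 3 was not counted. These counts therefore cannot be read as particular to the listed genes. Ciita was above all other tumors in its C1q+ macrophage-like (53.3 CPM against at most 52.4) and T cell-like cells (3.84 against at most 3.29). In its tumor epithelial-like cells B2m was at 181.0 CPM, against 744.0 to 1962.7 CPM in the other 9 tumors, H2-K1 at 290.7 against 799.2 to 2375.7, H2-Q7 at 30.7 with the median of the others at 453.9, and Cd74 at 105.2 against 282.8 to 1924.2. Nlrc5, the class I transactivator, was at 2.27 CPM against 12.8 to 33.1, and the immunoproteasome subunit Psmb8 at 57.4 against 209.7 to 812.8. In absorptive and cycling epithelial-like cells B2m, H2-K1, H2-Q7, Nlrc5 and Psmb8 were again lowest in this tumor. In its T cell-like cells B2m was at 2007.1 CPM, the 3rd lowest in a range of 1545.2 to 2605.0 for the others, and H2-K1 at 2625.7 CPM, close to the median of 2626.7. Psmb8 in these cells was lowest, at 717.3 CPM against 743.3 to 1103.4.
Some of the levels in its myeloid cells were also below those of the other tumors. In C1q+ macrophage-like cells H2-K1 was at 992.5 CPM against 1179.8 to 1805.8 and B2m at 1666.7 against 1740.4 to 2861.6, whereas Cd74 at 11714.3 CPM was inside the range of the others. In Spp1+ macrophage-like cells H2-K1 was at 727.7 CPM against 927.7 to 1344.9, in type 1 dendritic cell-like cells B2m at 839.5 against 1025.6 to 1638.9, and in neutrophil-like cells H2-K1 at 269.5 against 297.9 to 505.4, where H2-D1, Tapbp and Tap2 were inside the range. Cd74 in type 1 dendritic cell-like cells was at 16586.6 CPM against 17477.5 to 20937.4. Irf1, an interferon-induced transcription factor, was at 308.9 CPM in its neutrophil-like cells against 669.5 to 1203.5 and at 236.8 in its monocyte-like cells against 363.9 to 574.3. In B cell-like cells H2-K1 (1180.0 CPM) and B2m (958.5 CPM) were within the range of the others. In its epithelium the leukocyte, macrophage and neutrophil lists summed to 27.3, 8.76 and 125 CPM and the dissociation stress list to 1377 CPM, each the lowest of the 10 tumors. Their part in these levels was not tested. This tumor was singled out after its values were seen, and no test was made on it beyond the outlier criterion given under the results flagged for a closer look.

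**Figure D5:**
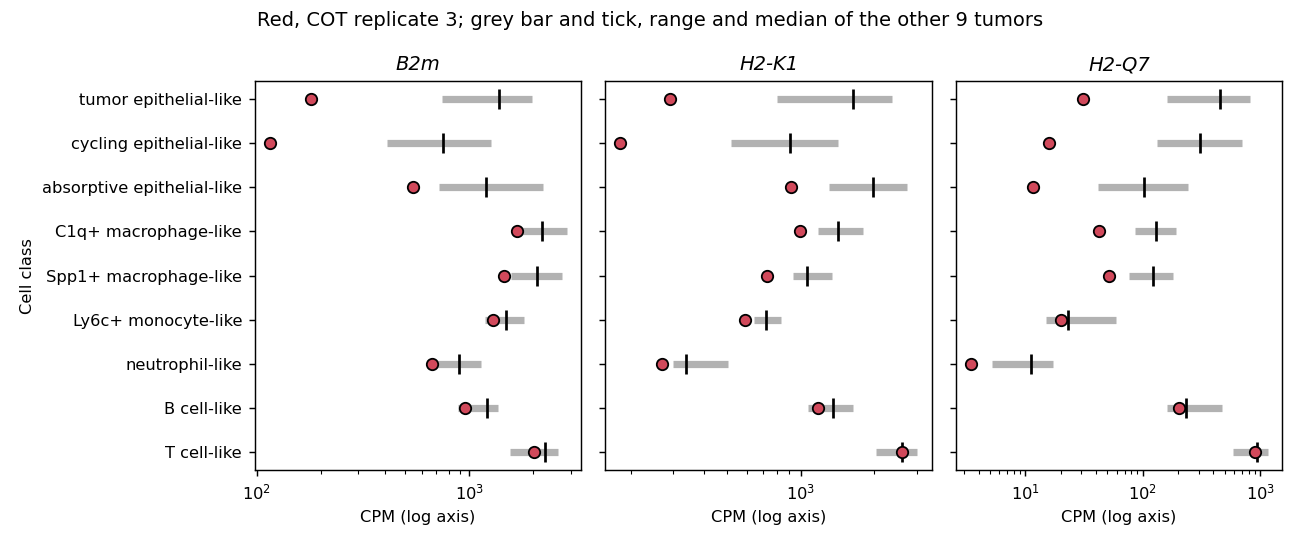
CPM of B2m, H2-K1 and H2-Q7 (log axes) in 9 cell classes for COT replicate 3 (red) and the range and median of the other 9 tumors (grey bar and tick). The red point lies to the left of the bar in the 3 epithelial classes for all 3 genes, and inside the bar in T cell-like cells.

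The wider pathway in the epithelium gave a mixed picture by step. The counts below stand beside the 33.6% of all genes that were higher and the 30.1% that were lower in the same fit. Of 8 proteasome genes, 4 were lower (50%) and 0 higher, namely the immunoproteasome subunit Psmb9 (-1.15 ± 0.38), Psme2 (-0.94 ± 0.25), Psmb10 (-0.90 ± 0.25) and Psme1 (-0.45 ± 0.19), all of them interferon-inducible subunits or activators. The constitutive subunits Psmb5, Psmb6 and Psmb7 had log2 fold changes of -0.16, -0.11 and -0.17 and did not pass, nor did Psmb8 (-0.81 ± 0.43). Psme1 was not called with the animal as a block (-0.44; edgeR, BH-adjusted p = 0.0618). Of 5 genes for class I folding and trimming, 4 were lower (80%): Pdia3, a thiol oxidoreductase of the loading complex (-0.72 ± 0.13), the trimming peptidase Erap1 (-0.50 ± 0.10), and the chaperones Calr (-0.48 ± 0.17) and Canx (-0.25 ± 0.07). The tapasin-related Tapbpl was called lower as well without COT replicate 3 (-0.40; edgeR, BH-adjusted p = 0.0310). The medians of these lists were -0.63 and -0.48, against 0.04 for all genes. With library totals in place of edgeR's factors, which moved the median of all genes to 0.29, the calls of Psmb9, Psme1, Calr and Canx were lost (edgeR, BH-adjusted p = 0.0501, 0.356, 0.276 and 0.992), and those of Psmb10, Psme2, Pdia3 and Erap1 were kept.

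Among 11 regulators 3 were higher and 3 lower (27.3% each, close to the share of all genes), with a median of -0.07. With library totals alone 4 were higher and 1 lower. Nlrc5 was higher, at 17.7 ± 8.12 CPM in COT against 5.60 ± 1.49 in Adj over libraries (1.40 ± 0.50; edgeR, BH-adjusted p = 0.0238), and so was Rfx5 (0.60 ± 0.23), a subunit of the factor that binds the X box, and Creb1 (0.48 ± 0.09). Irf8 (-1.78 ± 0.21), Rfxank (-0.43 ± 0.13) and Irf2 (-0.30 ± 0.09) were lower, the last 2 not with library totals alone, where Nfya was called higher (0.48; edgeR, BH-adjusted p = 0.0131). With the animal as a block Rfx5 was not called (0.57; edgeR, BH-adjusted p = 0.0546) and Rfxap was called lower (-0.21; adjusted p = 0.0423). Of 10 interferon gamma genes 4 were higher (40%) and 2 lower (20%). The chemokines Cxcl9 (2.64 ± 0.85) and Cxcl10 (2.43 ± 0.58) had the largest changes. Cxcl9 overlapped between groups, at 7.16 to 243.3 CPM in COT and 11.4 to 19.6 CPM in Adj. The leukocyte, macrophage and neutrophil lists given above were higher in the same COT libraries, and their part in the chemokine values was not tested. The receptor chain Ifngr1 (-0.80 ± 0.20) and the kinase Jak1 (-0.34 ± 0.10) were the lower. With library totals alone 6 were higher and 1 lower, with Jak1 lost and Ifngr2 (0.42) and Gbp2 (1.29) gained (edgeR, BH-adjusted p = 0.0123 and 0.0400), and without COT replicate 3 Gbp2 was also called (1.17; adjusted p = 0.00747).

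Of the 7 tested genes for class II processing, 3 were higher and 3 lower (42.9% each), and with library totals alone March8 lost its call (-0.17; edgeR, BH-adjusted p = 0.1003), which left 2 lower. The cathepsins Ctsl (1.31 ± 0.13) and Ctsd (1.08 ± 0.16) rose, and Ifi30, a thiol reductase of the endosome (-1.90 ± 0.31), and Ctss, the protease that trims the invariant chain (-1.07 ± 0.29), fell. Of 6 costimulation genes 5 were higher (83.3%), at low levels: Cd86 (4.56 ± 0.81) averaged 0.580 CPM in COT and Cd40 (4.11 ± 0.73) 1.85 CPM, and Cd80 (3.35 ± 0.74), Pdcd1lg2 (3.24 ± 0.87) and Icosl (1.05 ± 0.19) also passed. Without COT replicate 3 the sixth, Cd274, was called higher too (0.73; edgeR, BH-adjusted p = 0.0124). The leukocyte and macrophage lists given above were higher in the same libraries, and their part in these costimulation values was not tested. Among 7 tested class I-like genes outside the H2 names, Mr1 (5.48 ± 0.89) and Ulbp1 (1.16 ± 0.40) were higher. Mr1 was at 1.56 ± 0.968 CPM over COT libraries and at most 0.0375 CPM in Adj. Fcgrt, the neonatal Fc receptor (-1.77 ± 0.33), and H60c (-1.21 ± 0.43) were among the 4 that were lower (57.1%). Of these 4, Fcgrt alone was called with library totals, where Cd1d1 was called higher (0.80, edgeR, BH-adjusted p = 0.0461). Raet1e (-0.96 in the full set) lost its call without COT replicate 3 (-0.91; adjusted p = 0.0516). These log2 fold changes come from the same edgeR fit with an adjusted p under 0.05 for each gene called.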

How the data were processed

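Single-cell libraries were made with droplet-based 3′ chemistry. The deposited matrices hold raw UMI counts per gene and barcode, which the authors made with Cell Ranger (version 6.0.0 per the file headers and the labels, on mm10). Barcodes with under 500 UMIs, under 200 genes or over 25% mitochondrial UMIs were removed, and simulated doublet scores removed 0.8% of barcodes per 1000. The 2000 most variable genes without the 40 genes of the list, 30 principal components and 20 neighbors were used for Leiden clustering at resolution 1 (igraph 0.11.9, Python 3.11.15). Clusters were named from marker lists. UMIs were summed per library and class with at least 20 cells. The sums were tested with edgeR 4.0.16 (R 4.3.3, TMM factors, filterByExpr, quasi-likelihood test, Benjamini-Hochberg adjusted p under 0.05), and DESeq2 1.42.0 was an alternative. The quasi-likelihood test gives no SE. The SE printed with an edgeR log2 fold change is its size divided by the square root of the F statistic, an approximation. On simulated counts for the epithelium (15154 genes), 100% of 4-fold and 48% of 2-fold changes were called, and 0.06% of unchanged genes. These counts were drawn with the same dispersion for every gene and with independent libraries that shared no animal. The rates may therefore not hold for the real libraries.

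Library and animal come from the labels. Tumors of 1 animal and its mucosa share that animal, so the animal was entered as a block in an alternative. The correlation of their deviations from the group means over 15439 genes was 0.146 for AP1044, 0.0744 for AP1067 and 0.182 for AP1086. Tumors of 1 animal are not independent animals, and the p-values measure the spread between these libraries. Shares of cells were compared by exact permutation within animals (75 assignments) after thinning to 2000 UMIs, which leaves out shallower cells. Intervals and limits cover counting error only.

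The genes, gene lists and motif letters were chosen with earlier results of these data known. Values per library were given for H2-K1, H2-D1, B2m, Tap1, Tap2, Tapbp, H2-T3, H2-T23, H2-M3, the H2-Q gene with most epithelial UMIs, Cd74, H2-Aa, H2-Ab1, H2-Eb1, H2-DMa, H2-DMb1 and Ciita, and other listed genes by counts and ranges, with H2-Q1, H2-Q2 and those whose calls changed added after their values were seen. From each pathway list the 2 largest and the 2 smallest changes past the threshold were named, and further names were added after their values were seen.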

Additional observations from a re-analysis of the deposited data

Results flagged for a closer look

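A tumor was marked where its gap to the nearest other tumor was too large for the range of its group (Dixon's criterion at the 95% level). Of 45 groups of values 3 were marked, and chance marks about 1 group in 20. H2-T3 in the epithelium was highest in COT replicate 6, at 2.211 CPM with the next tumor at 0.2336 CPM. The share of thinned epithelial cells with a B2m UMI was lowest in COT replicate 3, at 28.6% with the next tumor at 57.8%. H2-Q2 in goblet-like cells was lowest in COT replicate 5, at 8.437 CPM with the next tumor at 22.88 CPM.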

How the results depend on the processing

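Of the 14 epithelial calls, 12 (all but H2-T23 and H2-M3) kept their direction and an adjusted p under 0.05 in every alternative run for them, among these DESeq2, other size factors, no filter on low counts, doublets kept and Leiden resolution 2. The count of listed genes called in the epithelium was 12 to 16 on leaving out 1 library (54.9 to 66% of all genes were then called), 19 with the tumors of each mouse summed, and 12 to 14 otherwise. With the animal as a block it was 14, with H2-T23 lost (-0.747) and H2-M2 gained. H2-T23 and H2-M3 also lost their calls with mitochondrial shares under 10%, at -0.624 and -0.721. Library totals without TMM, added after the data were seen, moved the median of all genes from 0.038 to 0.291 and the calls over all genes from 5188 higher and 4654 lower to 6889 and 3105. Under them H2-K1 (0.101), H2-D1 (0.077) and Tap1 (0.096) changed sign without passing. B2m was at 0.370 under them and ranged from -0.005 (without COT replicate 1) to 0.232 on leaving out 1 library. Leaving out 1 library gave 1 to 8 calls in goblet-like cells (7 with all), 1 to 3 in B cell-like cells (2 with all; 1 without Adj replicate 3 or COT replicates 4, 5, 7 or 10), and a Cd74 share difference of -32.6 to -24.1 points, with exact p from 0.0167 to 0.2. Without Adj replicate 1 the p of 0.0667 was the smallest that 15 assignments allow, and without Adj replicate 2 or 3 and COT replicates 1, 2, 4, 5, 6, 7 or 8 the p of 0.05 to 0.2 was above the smallest possible. In this share test the tumors of an animal left together with its Adj replicate, so those settings rest on the other animals alone. Macrophage-like and dendritic cell-like tests were not run, with 1 mucosa library each. The goblet-like sums of the tumors that were tested held 28 to 111 cells, and the smallest T and B cell-like sums 137 and 59 cells.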
